A study of Mus musculus with 10 samples.

Results

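The integrated stress response genes examined here were Atf4, Atf5, Ddit3, Atf3, Trib3, Sesn2, Asns, Psat1, Chac1 and Gdf15. These genes are transcription factors and targets of the ATF4 and CHOP arm, an arm usually seen upstream of the liver hormone Fgf21. They were picked by symbol in the deposited count table, and all 10 were found among its 24421 genes. Hepatic mRNA came from wild-type male C57BL/6 mice (C57BL/6 J in the study's methods), 21 weeks old per the labels and fed ad libitum. The Chow group (n = 5) ate standard chow, and the TM5614 group (n = 5) ate chow that held TM5614, an oral small molecule inhibitor of plasminogen activator inhibitor 1, at 20 mg/kg/day for 10 days. Each mouse gave 1 poly(A) RNA library, so the spread and the p-values are between mice of 1 strain, sex and age.

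The integrated stress response begins when any of several kinases phosphorylates the translation factor eIF2. Most translation then falls, while mRNAs with particular upstream reading frames, such as those of Atf4, Atf5 and Ddit3, are translated better. The factor ATF4, often with C/EBP partners, then raises the transcription of genes for amino acid supply, tRNA charging and feedback on the pathway. In liver it is known for its part in the answer to amino acid shortage, endoplasmic reticulum stress and mitochondrial faults, and Fgf21 is among its targets. RNA sequencing sees the mRNA of these genes and not eIF2 phosphorylation or ATF4 protein.

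The DNA letters through which C/EBP and ATF proteins bind as a pair are shown first, because they are what several of these genes and Fgf21 share. Promoter windows of 300 bases, from 250 before to 50 after the transcription start, were taken from RefSeq on GRCm38.p6 and searched on both strands for the C/EBP-ATF response element, TGATGNAA. It was present in 4 of the 10 genes (Atf3, Trib3, Asns and Chac1) and in Fgf21, against 4.511% of the 27025 genes with a window in the table. The matches are printed below 5′ to 3′ on the strand of the gene, with the element in capitals. Where the element lies on the opposite strand it reads TTNCATCA. Distances are counted from the RefSeq start, which for these 4 members differs from the start of the GENCODE gene positions given further below. For Atf3 and Asns the element lies upstream of the RefSeq start but inside the GENCODE gene.
Atf3, chr1:191183416-191183463, minus strand, beginning 110 bases upstream of the start: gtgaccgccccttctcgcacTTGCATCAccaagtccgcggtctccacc
Trib3, chr2:152344032-152344066, minus strand, beginning 14 bases downstream of the start: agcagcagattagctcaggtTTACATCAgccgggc
Asns, chr6:7693205-7693252, minus strand, beginning 23 bases upstream of the start: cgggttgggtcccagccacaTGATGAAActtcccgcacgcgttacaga
Chac1, chr2:119351029-119351076, plus strand, beginning 193 bases upstream of the start: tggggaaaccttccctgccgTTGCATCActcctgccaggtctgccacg
Fgf21, chr7:45615602-45615649, minus strand, beginning 139 bases upstream of the start: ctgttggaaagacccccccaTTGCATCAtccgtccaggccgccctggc

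The cyclic AMP response element, TGACGTCA, was in the windows of none of the 10 members and in 2.031% of all genes. The 5-base core TGATG alone was in 6 of the 10 members, but 42.92% of all genes held it. A match of letters is a description of the window and not a measured binding site.

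Expression is given as CPM, the counts of a gene scaled by library size and TMM factors, and for levels between genes as the deposited FPKM, which also divides by gene length. In both groups Atf5 stood highest per length, with a median of 177 FPKM in Chow (lowest 127, highest 378) and 281 FPKM in TM5614 (266 to 425). Atf4 came next, at a median of 52.5 FPKM in Chow and 45.8 FPKM in TM5614, and its range lay below that of Atf5 in both groups. Gdf15 and Trib3 followed in Chow at medians of 12.1 and 10.0 FPKM, then Ddit3 at 5.58, Asns at 3.01, Sesn2 at 2.57, Atf3 at 1.06, Chac1 at 0.613 and Psat1 at 0.188 FPKM. Apart from Atf5 over Atf4, the only neighbours in the Chow order whose ranges did not overlap were Chac1 and Psat1. Further apart in that order, the Chow ranges of Gdf15 (6.21 to 44.4 FPKM), Trib3 (5.22 to 16.6) and Ddit3 (4.89 to 10.1) each lay above that of Sesn2 (2.01 to 3.22). Within single Chow libraries Atf4 was above Gdf15 in 5 of 5 and Trib3 above Ddit3 in 5 of 5, while Gdf15 was above Trib3 in 3 of 5 and Ddit3 above Asns in 3 of 5. In TM5614 the same genes stood at 17.9 FPKM (Gdf15), 7.70 (Asns), 7.30 (Trib3), 5.85 (Ddit3), 3.24 (Sesn2), 0.859 (Atf3), 0.777 (Chac1) and 0.137 FPKM (Psat1), and of these neighbours only Ddit3 and Sesn2 had ranges apart. The order also depends on the length assigned to a gene. With CPM divided by the median transcript length in GENCODE M21, in place of the deposited FPKM, the Chow mean went from 10.6 to 34.4 for Trib3, from 7.45 to 25.6 for Asns and from 0.209 to 0.899 for Psat1, against 18.2 and 13.7 for Gdf15 and 0.646 and 0.627 for Chac1. Trib3 and Asns then stood above Gdf15, and Psat1 above Chac1. The median length was 639 bases for Trib3, 568 for Asns and 588 for Psat1, the shortest among the 10 members. Whether lengths this short represent the mRNAs in these livers was not tested, so the second order is no better founded than the first.

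The question put to these genes was whether their mRNA rose in the livers in which Fgf21 mRNA was high. Fgf21, which encodes a fasting and stress hormone of the liver, stood at 1.21, 1.54, 1.77, 0.475 and 1.38 CPM in Chow replicates 1 to 5, and at 9.62, 9.86, 11.2, 10.2 and 13.9 CPM in TM5614 replicates 1 to 5. Every TM5614 library lay above every Chow library, and the difference was 8.24-fold (log2 fold change 3.04, SE 0.24, adjusted p = 0.000136). Of the 10 members, 8 passed the filter on low counts and none of the 8 passed the adjusted p threshold of 0.05 in edgeR's quasi-likelihood test, where 4.5% of the 11092 genes tested did. At an unadjusted p under 0.05 there was 1 member, Atf5, and DESeq2 called 0 where it called 8.11% of all genes tested. limma-voom with sample quality weights called 1 of the 8, again Atf5, which is the share it called among all genes tested, 12.5%. The groups overlapped in CPM for 8 of 8 tested members, while 8.93% of all genes tested did not overlap. Estimates were positive for 4 members and negative for 4, with a median log2 fold change of 0.01, beside 0.01 over all genes tested.

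**Figure D1:**
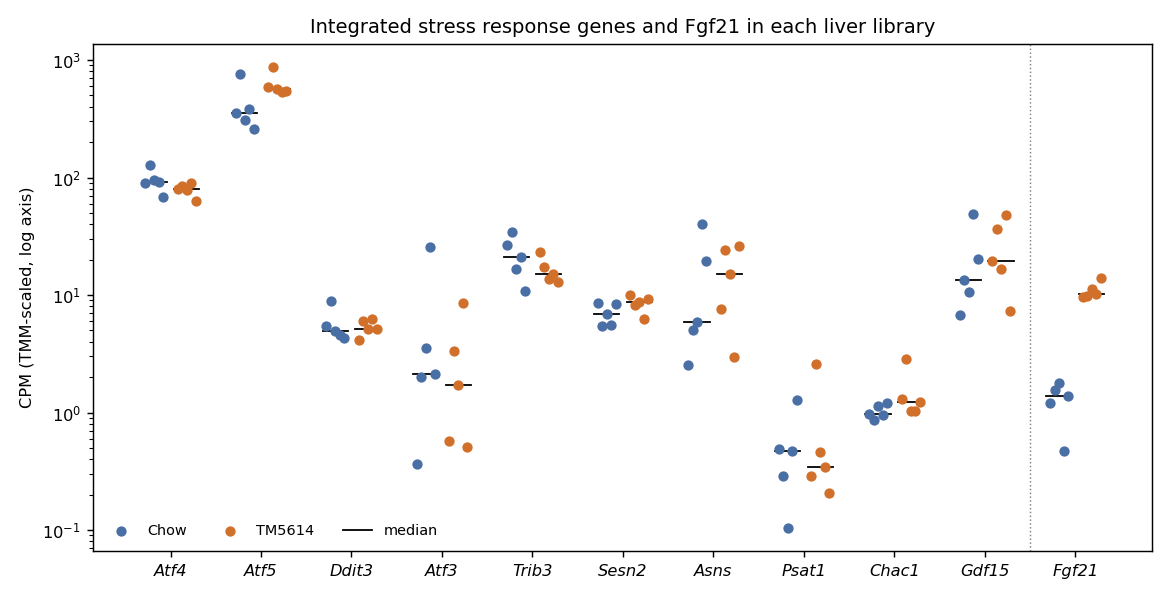
CPM on a log axis of the 10 members and Fgf21 in each library. Points are single mice, 5 Chow (blue) and 5 TM5614 (orange), and black bars are group medians. The groups of every member overlap, with Atf5 overlapping through Chow replicate 2 at 762 CPM, whereas the Fgf21 groups are apart.

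Atf4 (chr15:80255184-80257541, plus strand) encodes the central transcription factor of the response. Its mRNA was at 89.8, 128, 95.6, 92.2 and 68.1 CPM in Chow replicates 1 to 5 and at 80.1, 85.0, 77.7, 89.4 and 62.7 CPM in TM5614 replicates 1 to 5. The highest value of all was Chow replicate 2, and 1 TM5614 library was below every Chow library. The TM5614 level was 0.83 of the Chow level, with a 95% interval from 0.65 to 1.06, and did not differ from it beyond the spread of the mice (log2 fold change -0.26, SE 0.16, adjusted p = 0.370). The upper end of that interval is a rise of 1.06-fold.

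Ddit3 (chr10:127290829-127293753, plus strand) encodes CHOP, a factor induced downstream of ATF4 that is tied to cell death in prolonged stress. It was measured at 5.46, 8.87, 4.91, 4.59 and 4.32 CPM in the Chow libraries and at 4.16, 5.97, 5.16, 6.28 and 5.13 CPM in the TM5614 libraries. Again Chow replicate 2 was the highest, and the other libraries of both groups lay together between 4.16 and 6.28 CPM. The fold of TM5614 over Chow was 0.95 with a 95% interval from 0.68 to 1.32 (adjusted p = 0.855). Its sign was not stable: the log2 fold change was -0.08 with all libraries and 0.14 without Chow replicate 2.

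Trib3 (chr2:152337422-152344032, minus strand) encodes a pseudokinase that is switched on by ATF4 and CHOP and holds them back. It stood at 26.9, 34.4, 16.7, 20.9 and 10.9 CPM in Chow and at 23.4, 17.4, 13.6, 15.1 and 12.9 CPM in TM5614. The Chow values enclosed all of the TM5614 values. TM5614 over Chow was 0.75-fold with an interval from 0.49 to 1.14 (log2 fold change -0.42, SE 0.28, adjusted p = 0.411). Trib3 carries the C/EBP-ATF element printed above, and its interval held both falls and rises. For the other members with the element, the log2 fold change was -1.11 for Atf3 and 0.09 for Asns. For Chac1 it was 0.51 without the filter on low counts.

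Atf5 (chr7:44812256-44816658, minus strand) encodes a relative of ATF4 that is known for its role in the mitochondrial stress response and is abundant in hepatocytes. It was at 356, 762, 311, 381 and 257 CPM in Chow replicates 1 to 5 and at 585, 872, 568, 535 and 547 CPM in TM5614 replicates 1 to 5. In 4 Chow libraries Atf5 was below every TM5614 library, and the remaining Chow library, replicate 2, was above 4 of the 5 TM5614 libraries. With all libraries the fold was 1.5 (95% interval 1.01 to 2.24, log2 fold change 0.59, SE 0.27), at an unadjusted p of 0.0472 and an adjusted p of 0.239 in edgeR's test. Without Chow replicate 2 the remaining Chow mean was 326 ± 54.6 CPM (SD, n = 4), the groups were apart and the fold was 1.89 (log2 fold change 0.92, 95% interval 0.58 to 1.26, adjusted p = 0.00333). In that fit Atf5 was the only member called, where 9.24% of the 11162 genes tested were called. Leaving out any other single library kept the Atf5 estimate between 0.43 and 0.64 on the log2 scale, short of the threshold in each case.

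Chow replicate 2 also differed from the other libraries in a property that touches several of these genes. A trend on GC content and gene length accounted for 40.1% of the spread of its log2 deviations over genes, against 0.680% to 10.4% in the other libraries. On the log2 scale the trend fitted in that library assigned a rise of 0.69 to Atf5, 0.80 to Trib3 and 0.75 to Gdf15. It assigned 0.46 to Ddit3, 0.45 to Atf4, 0.36 to Sesn2, 0.07 to Asns and -0.03 to Atf3. These are fitted and not observed shifts. In Chow replicate 2 Sesn2 was the lowest of the Chow values, at 5.40 CPM, and Gdf15 was the median one, at 13.3 CPM. Atf5 transcripts are 61.7% G and C, a higher share than in 98.5% of the genes tested, and Gdf15 transcripts are also 61.7% (higher than in 98.6%). With such a trend taken out of every library, the log2 fold change of Atf5 in edgeR's test was 0.90 (adjusted p = 0.00509). That of Trib3 was -0.13 (adjusted p = 0.776) and that of Atf4 was -0.11 (adjusted p = 0.652). In that fit Atf5 was the only member called, where 6.07% of the 11092 genes tested were called. Leaving Chow replicate 2 out gave -0.20 for Trib3 and -0.14 for Atf4.

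The Atf5 locus overlaps Nup62 and Il4i1 on the opposite strand, and the use of strand in counting is not given in the sources used here. Il4i1 had 0 counts in every library, and Nup62 ranged from 4.49 to 9.84 CPM in Chow and from 8.90 to 12 CPM in TM5614 (log2 fold change 0.43, adjusted p = 0.240). Both are far below the 257 to 872 CPM of Atf5, but reads of overlapping genes cannot be told apart without strand.

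**Figure D2:**
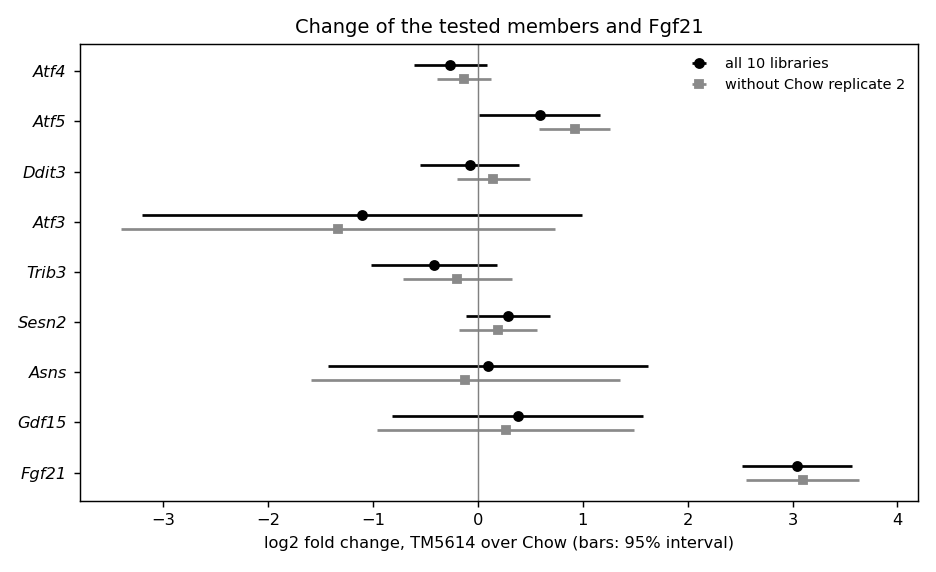
Log2 fold change of TM5614 over Chow for the 8 tested members and Fgf21, with 95% intervals, for all 10 libraries (black circles) and without Chow replicate 2 (grey squares). The Atf5 estimate moves from 0.59 to 0.92 and its interval narrows, the Atf3 and Asns intervals are the widest, and Fgf21 lies at 3.04 and 3.10.

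Atf3 (chr1:191170296-191218039, minus strand) encodes an early stress factor that acts beside ATF4 and CHOP. It was at 0.364, 2.03, 3.55, 25.7 and 2.12 CPM in Chow and at 0.574, 3.37, 1.72, 8.57 and 0.513 CPM in TM5614. A single mouse, Chow replicate 4, stood 7.23 times above the next Chow mouse, and the lowest library held 3 counts. The log2 fold change was -1.11 with a 95% interval from -3.20 to 0.99 (adjusted p = 0.535), and it was 0.53 (adjusted p = 0.727) without Chow replicate 4. No direction can be read for Atf3 from these libraries.

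Asns (chr6:7675169-7693254, minus strand) encodes asparagine synthetase, the classic target of amino acid shortage. Asns carries the element 23 bases before its RefSeq start. It was at 2.55, 5.02, 5.85, 39.9 and 19.5 CPM in Chow and at 7.61, 24.4, 15, 2.97 and 26 CPM in TM5614. The range of the TM5614 group lay inside that of the Chow group, with 15.7-fold from lowest to highest in Chow and 8.74-fold in TM5614. The fold of the group means in the fit was 1.07 with an interval from 0.37 to 3.07 (adjusted p = 0.951). Changes of Asns within that interval were not detectable against the spread of these mice.

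Psat1 (chr19:15904678-15947337, minus strand) encodes phosphoserine aminotransferase, a step of serine synthesis. It was barely detected, with 1 to 20 counts per library, or 0.485, 0.289, 0.104, 0.475 and 1.29 CPM in Chow and 0.287, 2.60, 0.459, 0.343 and 0.205 CPM in TM5614. TM5614 replicate 2 was alone above 1.29 CPM. Psat1 did not pass the filter on low counts, and without that filter its log2 fold change was 0.50 (SE 0.76, adjusted p = 0.759).

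Chac1 (chr2:119351229-119354381, plus strand) encodes an enzyme that breaks down glutathione and is a sensitive target of the ATF4 and CHOP arm. With 6 to 22 counts per library it was at 0.970, 0.868, 1.15, 0.951 and 1.2 CPM in Chow and at 1.29, 2.85, 1.03, 1.03 and 1.23 CPM in TM5614. The libraries lay close together near 1 CPM except for TM5614 replicate 2, and 3 TM5614 libraries were above all Chow libraries. Chac1 also failed the filter, and without it the log2 fold change was 0.51 (SE 0.35, adjusted p = 0.496). Counts this low leave a wide counting error on both Psat1 and Chac1.

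Sesn2 (chr4:132492032-132510501, minus strand) encodes sestrin 2, which senses leucine and restrains mTORC1. It was at 8.61, 5.40, 6.89, 5.55 and 8.46 CPM in Chow and at 10.1, 8.31, 8.71, 6.28 and 9.34 CPM in TM5614. Although 3 TM5614 libraries exceeded all Chow libraries, the groups overlapped through TM5614 replicates 2 and 4. The fold was 1.22 with an interval from 0.92 to 1.61 (log2 fold change 0.28, SE 0.18, adjusted p = 0.403).

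Gdf15 (chr8:70629393-70632456, minus strand) encodes a secreted stress hormone that, like Fgf21, is made by the liver and acts on feeding. It was at 6.79, 13.3, 10.5, 49.0 and 20.4 CPM in Chow and at 19.7, 36.7, 16.6, 48.2 and 7.29 CPM in TM5614. The highest mouse of each group was almost the same, and so was the lowest. The fold was 1.30 with an interval from 0.57 to 2.98 (log2 fold change 0.38, SE 0.55, adjusted p = 0.717), beside the interval of 5.72 to 11.9 for Fgf21. A single mouse moved the Gdf15 estimate, to 0.99 without Chow replicate 4 and to 0.02 without TM5614 replicate 4, and neither value passed the threshold.

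The mice differed from each other in some members far more than in most genes. The coefficient of variation (SD over mean) of Atf3 was 158% in Chow and 114% in TM5614, that of Asns was 107% and 66.4%, and that of Gdf15 was 84.7% and 64.1%. The median over all genes tested was 23.9% in Chow and 13.4% in TM5614. Atf4, in contrast, varied by 22.9% and 12.8%, near those medians. In the Chow group Atf3, Asns and Gdf15 were all highest in replicate 4 and all lowest in replicate 1. The other set, Atf4, Atf5, Ddit3 and Trib3, was highest in Chow replicate 2 and lowest in Chow replicate 5. The GC content and length trend fitted in Chow replicate 2 assigned each of that set a rise, from 0.45 (Atf4) to 0.80 (Trib3). It also assigned 0.75 to Gdf15, which was not highest there. The part of this trend in the shared order was not tested.

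Among the treated mice these orders were repeated in part. Atf3 and Gdf15 were again highest together and lowest together, while Asns was opposite to them. Atf4 was highest with Ddit3 and lowest with Trib3, but Atf5 was lowest where Atf4 was highest. In TM5614 replicate 4 Atf3, Atf4, Ddit3 and Gdf15 were at their highest of the group while Atf5, Asns, Chac1 and Sesn2 were at their lowest. TM5614 replicate 5 had the highest Asns and the lowest Atf3, Atf4, Trib3, Psat1 and Gdf15. TM5614 replicate 2 had the highest Atf5, Chac1 and Psat1.

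**Figure D3:**
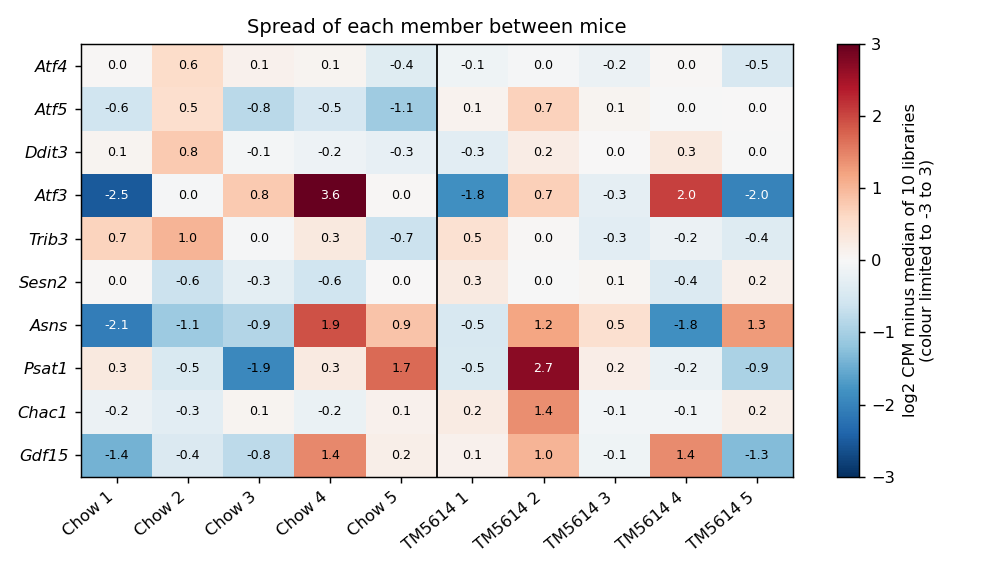
Log2 CPM of each member minus its median over the 10 libraries, with the number printed in each cell (colour limited to -3 to 3). Atf3, Asns, Psat1 and Gdf15 vary by several log2 units between mice within a group, while Atf4, Ddit3, Trib3 and Sesn2 stay mostly within 1 unit.

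Some libraries stood apart in other genes, and their values are given beside these. TM5614 replicate 2, highest for Atf5, Chac1 and Psat1, held 3641 CPM summed over 8 skeletal muscle markers, where the next library held 63.8 and the Chow libraries 0.644 to 1.25. The part of muscle RNA in those 3 values was not tested, and without that library the log2 fold change was 0.43 for Atf5 (adjusted p = 0.398) and 0.14 for Chac1 (adjusted p = 0.818). Chow replicate 4, highest for Atf3, Asns and Gdf15, held 539 CPM of the acute phase gene Saa2, named after its values were seen, against 13.1 to 107 in the other Chow libraries, and its part in the member values was not tested. Saa2 was at 3.77 to 8.69 CPM in TM5614, below every Chow library (log2 fold change -4.75, adjusted p = 0.0124). Hepatocyte markers (7 of 7 detected) summed to between 96708 and 123443 CPM in all libraries, so the liver label holds for all 10 libraries by this measure. Macrophage markers (8 of 8 detected) spanned 58.1 to 179 CPM in Chow and 63.0 to 134 CPM in TM5614, and stellate cell markers (6 of 6 detected) 154 to 278 and 248 to 333 CPM. None of the tested markers in any list passed the threshold. In whole liver, a smaller number of cells of a type and less RNA per cell cannot be told apart. Library totals ran from 6398335 to 10874955 counts.

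The rest of the pathway was read through 87 further genes in lists by role, of which 77 were tested. In these lists 7 genes were higher in TM5614, 3 were lower and 67 did not pass, where 1.73% of all genes tested were called higher and 2.77% lower, and the median log2 fold change was 0.16. The kinases that start the response came first, and 0 of 4 passed. Eif2ak1, which senses haem shortage, had a log2 fold change of -0.07 (adjusted p = 0.682), and Eif2ak2, which senses double-stranded RNA, 0.16 (adjusted p = 0.553). Eif2ak3, the endoplasmic reticulum kinase PERK, had 0.52 (adjusted p = 0.308), and Eif2ak4, the amino acid sensor GCN2, -0.16 (adjusted p = 0.594). None of the 8 subunits of eIF2 and eIF2B passed, and Eif2b2 was the largest at -0.22 (adjusted p = 0.554). Eif2b4, at 0.18 (adjusted p = 0.563), was called higher with limma-voom, the GC content and length correction and without Chow replicate 2.

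None of the 5 tested brakes and kinase modulators of the response passed the threshold, and 4 of the 5 estimates were positive. Ppp1r15a, the stress-induced phosphatase subunit GADD34 that ATF4 and CHOP raise, was at 13.8 ± 2.24 CPM in Chow and 13.4 ± 2.01 CPM in TM5614 (SD, n = 5 each). Its log2 fold change was -0.04 with a 95% interval from -0.37 to 0.29 (adjusted p = 0.907). Its constitutive relative Ppp1r15b had 0.11 (adjusted p = 0.797). Impact, an inhibitor of GCN2, had 0.56 (adjusted p = 0.247), although its groups did not overlap. Dnajc3, of the same list, had 0.36 with a 95% interval from 0.03 to 0.69 (adjusted p = 0.211), and its groups overlapped.

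Among the amino acid genes that ATF4 is known to raise, the 2 that passed were lower in TM5614. Shmt2, the mitochondrial serine hydroxymethyltransferase, fell from 224 ± 28.4 to 155 ± 12.2 CPM (SD, n = 5 each, log2 fold change -0.53, adjusted p = 0.0196), but it was not called under the GC content and length correction or without Chow replicate 3 or TM5614 replicate 2, 3 or 4. Slc6a9, a glycine transporter, fell from 41.6 ± 8.44 to 20.3 ± 4.48 CPM (log2 fold change -1.04, adjusted p = 0.00733), and it was called in all 10 fits with 1 library left out. Beside Asns, 4 of the 5 tested genes of the serine, one-carbon and amino acid list did not pass. In that list 3 of the 5 estimates were positive, with a median log2 fold change of 0.30. Got1 was the largest that did not pass at 0.78 (adjusted p = 0.217), and it was called higher without Chow replicate 4. Cth had 0.77 (adjusted p = 0.206) and was called higher with limma-voom. Of the 6 tested transporters 5 did not pass, with Slc7a5 the largest at -0.67 (adjusted p = 0.222), and 3 of the 6 estimates were positive. Of 12 aminoacyl-tRNA synthetases, which charge tRNA and which ATF4 also raises, 1 was higher, Tars, at 71.7 ± 19.6 CPM in Chow and 115 ± 12 CPM in TM5614 (log2 fold change 0.68, adjusted p = 0.0429). Tars was called in 2 of the 10 fits with 1 library left out, those without Chow replicate 1 or 2, and not without the filter on low counts. The median of that list was 0.13, and Iars was the largest of those that did not pass (0.27, adjusted p = 0.446). The element TGATGNAA was in 5 of the 8 synthetases with a window, Aars, Gars, Iars, Tars and Yars, named here for that match, and in 14 of the 69 pathway genes with a window.

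Among 10 other tested targets of ATF4 and CHOP, 1 was lower, Stbd1, a glycogen-binding protein (log2 fold change -0.65, adjusted p = 0.0182), and none was higher. Stbd1 was not called without TM5614 replicate 1 or 3. Sqstm1, an autophagy receptor named here because its call changed, was called higher with DESeq2, limma-voom, the GC content and length correction and without Chow replicate 2. Genes of other lists that were also called only in alternatives are named with their lists or in the last section. Eif4ebp1 was the largest that did not pass (-0.42, adjusted p = 0.300). The mitochondrial stress list had 0 of 8 called, and Yme1l1 was the largest at 0.35 (adjusted p = 0.426). None of the 3 tested partner factors of ATF4 and CHOP passed, and Cebpg was the largest at 0.25 (adjusted p = 0.298).

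The other branches of the unfolded protein response, those of ATF6 and XBP1, stood beside the ATF4 branch with a different count. Of their 16 genes 6 were higher in TM5614 and none was lower, all 16 estimates were positive, and the median log2 fold change was 0.50. Over all genes tested 1.73% were called higher and 51.5% had a positive estimate. Hspa5, the main chaperone of the endoplasmic reticulum, went from 555 ± 105 to 1080 ± 165 CPM (SD, n = 5 each, log2 fold change 0.96, adjusted p = 0.00411). Creld2, a secreted stress-induced protein, went from 18.2 ± 4.18 to 40.7 ± 5.90 CPM (1.16, adjusted p = 0.00236). The others that rose were Manf (0.79), Hyou1 (0.73), Dnajb11 (0.60) and Hsp90b1 (0.50), also folding factors or, for Manf, a secreted stress protein, and the largest that did not pass was Sdf2l1 (0.64, adjusted p = 0.295). Hspa5, Creld2, Manf and Dnajb11 were called in all 10 fits with 1 library left out, Hsp90b1 in 5 of them (not without Chow replicate 3 or 4 or TM5614 replicate 1, 3 or 4) and Hyou1 in 3 (those without Chow replicate 2 or 5 or TM5614 replicate 5). The element TGATGNAA was in 0 of the 13 of these genes with a window. Over all genes with a window the share was 4.511%, so few matches would be looked for among 13 genes. The difference between the branches as such was not tested, and the counts are a description of the lists. These lists were chosen with earlier results of these data known. Each gene was placed in 1 list only, so the counts depend on that placement.

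**Figure D4:**
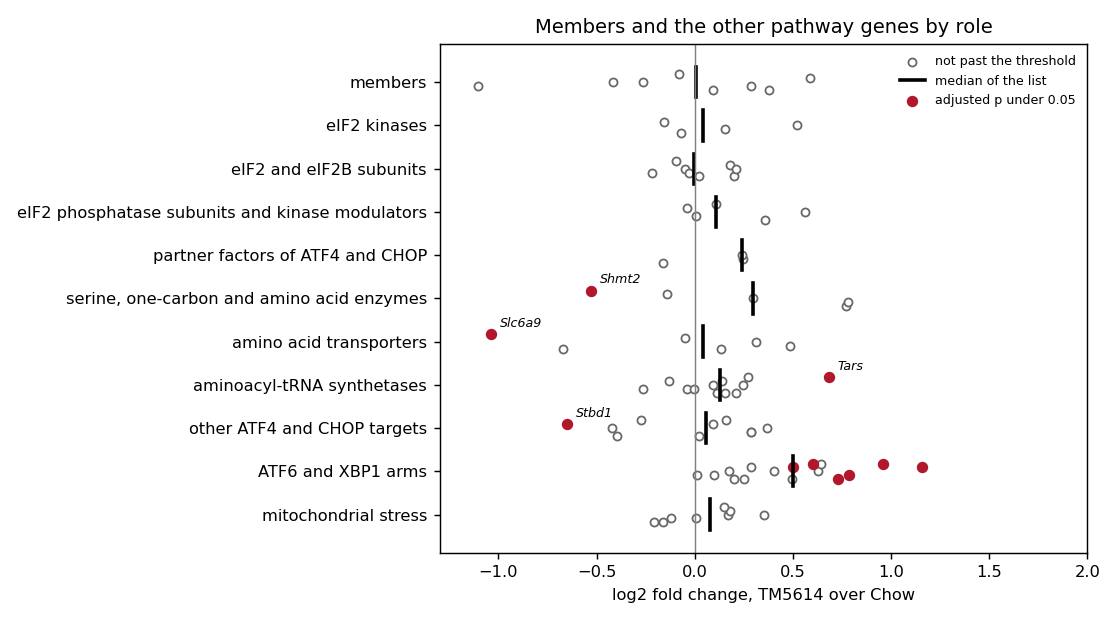
Log2 fold changes of TM5614 over Chow for the tested members and the other pathway genes, 1 row per role. Filled red points passed an adjusted p of 0.05, open points did not, and black bars are list medians. The members spread around 0 with none filled, and the ATF6 and XBP1 row lies to the right with 6 filled.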

How the data were processed

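The labels describe flash-frozen liver, whereas the study's methods describe liver kept in RNA LATER before extraction. Poly(A) RNA libraries of 10 mice were read as 75-base single-end reads. Per the study's methods and the submitters' processing notes, reads were aligned to mm10 with STAR in the RNA Express application and compared with DESeq2, and HOMER is also named. The annotation, versions and strand setting are not given in the sources used here. Raw counts for each gene symbol, in whole reads, were deposited by the authors together with FPKM values, which the authors scaled between libraries as DESeq2 size factors do (checked against the counts). Deposited regularised log2 values and the authors' own comparison (fold changes and p-values) were not used.

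Columns were matched to samples by mouse number, and groups came from the titles. Genes were kept with filterByExpr, scaled with TMM and tested with edgeR 4.0.16 in R 4.3.3 (glmQLFit and glmQLFTest, two-sided, Benjamini-Hochberg over the 11092 genes kept, threshold 0.05). Standard errors were obtained from the F statistic and the fold change, and 95% intervals are t-based. The code was tested on simulated data. Alternatives were DESeq2 1.42.0, limma-voom 3.58.1 with sample quality weights, other scalings and filters, a robust fit, an adjusted p of 0.01, the replicate number as a block, a GC content and length correction (splines with 5 degrees of freedom, GENCODE M21 transcripts, 99.6% of tested genes), and each library left out in turn. Counts of the 20 within-group pairs of libraries differed by at least 8.00 chi-square per degree of freedom, so none was taken as deposited a second time.

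The members, lists and tests were chosen with earlier results of these data known. Genes named beside the members are the eIF2 kinases, Ppp1r15a, Ppp1r15b, Fgf21, pathway genes past the threshold and the largest estimate of each list that did not pass. Nup62 and Il4i1 (overlap with Atf5), Saa2, Dnajc3 and the synthetases with a promoter match were named outside this rule. So were Sqstm1 and the other pathway genes called only in alternatives. Gene positions are from GENCODE on GRCm38, which mm10 names. Of the 10 members, all had a RefSeq promoter window, as had 69 of 87 pathway genes. Counting error is largest for genes with few counts, whose counts are given, while the intervals also hold the spread between mice. No batch is named in the labels.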

Additional observations from a re-analysis of the deposited data

Results flagged for a closer look

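Each of 22 sets of 5 libraries (10 members and Fgf21 in each group) was examined in CPM. In 6 sets 1 library was far from the other 4 relative to their whole range. For independent sets of normally spread values chance gives about 1.1 (1 in 20). These sets share libraries and were not examined on a log scale, so 6 against 1.1 cannot be read as an excess. Atf3 was at 25.7 CPM in Chow replicate 4, and the next Chow library was at 3.55 CPM. Atf5 was at 762 CPM in Chow replicate 2, with the next at 381 CPM, and Ddit3 was at 8.87 CPM in that same library, with the next at 5.46 CPM. In TM5614 replicate 2, the library with the high muscle markers, Atf5 was at 872 CPM (next 585), Chac1 at 2.85 CPM (next 1.29) and Psat1 at 2.60 CPM (next 0.459). Chac1 and Psat1 rest on at most 22 and 20 counts. What set these libraries apart in these genes was not tested.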

How the results depend on the processing

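Across 20 alternatives the number of members past the threshold was 0, except for 1 (Atf5) under limma-voom, under the replicate block, under the GC content and length correction and without Chow replicate 2, so leaving out libraries gave 0 to 1. The number of all genes called was 499, and it was 900 with DESeq2, 1386 with limma-voom, 184 at an adjusted p of 0.01 and 235 to 1031 with 1 library left out (lowest without TM5614 replicate 3, highest without Chow replicate 2, and 293, 331 and 259 without Chow replicate 3, TM5614 replicate 1 and TM5614 replicate 4). For the pathway genes 10 became 17 with limma-voom, 4 at an adjusted p of 0.01 and 5 to 16 with 1 library left out. Besides Sqstm1, Eif2b4, Cth and Got1, other pathway genes that did not pass in the main fit were called higher elsewhere. Pdia4 was called with DESeq2, limma-voom, the replicate block and without Chow replicate 2. Calr, Pdia6 and Sdf2l1 were called with limma-voom and without Chow replicate 2. Adjusted p-values of Atf5 were 0.00127 with limma-voom, 0.0313 with the replicate block and 0.00509 with the correction. The sign of Ddit3 turned to 0.11 with limma-voom, 0.070 with the correction and 0.14 without Chow replicate 2, and ran from -0.17 to 0.14 with 1 library left out. The sign of Asns turned to -0.19, -0.12 and -0.11 without Chow replicates 1, 2 and 3 and to -0.14 and -0.20 without TM5614 replicates 2 and 5 (leave-one-out range -0.20 to 0.87), and that of Atf3 to 0.53 without Chow replicate 4 (range -2.06 to 0.53). The causes were not tested, beyond the fewer libraries or the stricter threshold itself. With the replicate block 555 genes, 11 pathway genes and 1 member were called. With the GC content and length correction 673 genes (6.07% of those tested), 11 pathway genes and 1 member were called. Of 5 same-numbered pairs 3 correlated above 0.1 (0.032 to 0.318), and 3 of 10 libraries correlated best with their own number. With 5 pairs this check cannot decide whether the numbers pair the mice. Atf3 had no value at the filter of 10 counts in every library. Few counts limit Psat1 (1 to 20 per library) and Chac1 (6 to 22).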
